A study of Mus musculus with 17 samples.

Results

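The cytosolic ribosomal protein genes encode the protein part of the ribosome. They were taken from the count table by name alone: a symbol made of Rps or Rpl and a number, with or without a final a or x, or one of Rplp0, Rplp1, Rplp2 and Rpsa. The rule found 76 of 24498 gene symbols, of which 30 belong to the small subunit and 46 to the large subunit. Rps3a1 and Fau, which also encode ribosomal proteins, and Rack1, which encodes a scaffold protein bound to the small subunit, do not follow this naming and were kept apart.

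Gene expression was measured by bulk RNA-seq of polyadenylated RNA, from mouse dorsal hippocampus slices (CA1 to CA3 and dentate gyrus). Mice were wild type (WT) or ACSS2KO (KO), a knockout carried in all cells of Acss2, whose product converts acetate into acetyl-CoA. Aged 6 months, they had been injected in the dorsal hippocampus with tau purified from the cortex of patients with Alzheimer's disease (Tau) or with phosphate-buffered saline (PBS). Per the study, molecular characterization followed 6 months after the injection. The 17 libraries formed 6 groups, with 3 libraries in each of the 4 male groups (WT PBS, WT Tau, KO PBS and KO Tau), 3 in female KO Tau and 2 in female WT Tau. No library came from a female injected with PBS. Per the labels, all animals, controls included, had been perfused with PBS and paraformaldehyde before dissection. The study's own text gives perfusion only under histology. Each library is named here by the number in its label.

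A ribosome holds 1 copy of almost every ribosomal protein, so the genes of this family are expressed together and at high levels in every tissue. Their mRNAs are short, and most begin with a C followed by a run of C and T bases, the terminal oligopyrimidine (TOP) motif, through which the mTOR pathway and the protein LARP1 adjust their translation and stability. In neurons, ribosomal protein mRNAs are also carried into dendrites and axons. Bulk tissue gives the mean over all cells, so fewer cells of a type and less RNA per cell cannot be told apart.

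The start sequences are shown because the TOP motif is the feature these mRNAs are best known for. Promoter windows from RefSeq (assembly GRCm38.p6, 250 bases before to 50 after an annotated start) matched 56 of the 76 genes, in 66 windows. A C at the annotated start followed by at least 4 bases C or T stood in 19.7% of these windows and in 2.51% of all 32851 windows. A run of this kind with at least 8 bases, beginning within 10 bases of the start, stood in 34.8% against 8.11%. Below are 8 genes with a run at the start and 2 without, each as the 10 bases before the start and the 20 from it on, with the run in capitals.
Rpl15, chr14:18270967-18270996, minus strand: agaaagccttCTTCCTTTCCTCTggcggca
Rpl35, chr2:39005112-39005141, minus strand: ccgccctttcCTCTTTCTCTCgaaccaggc
Rps10, chr17:27635225-27635254, minus strand: gcgcacgcccCTTCCTTTCCagcctccgcc
Rps18, chr17:33955646-33955675, minus strand: cacttccgctCTCTCTTCCacaggaggcct
Rps6, chr4:86857348-86857377, minus strand: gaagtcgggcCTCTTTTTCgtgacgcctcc
Rpl28, chr7:4792955-4792984, plus strand: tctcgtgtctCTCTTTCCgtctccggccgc
Rps15a, chr7:118116128-118116157, minus strand: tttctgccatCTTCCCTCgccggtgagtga
Rplp2, chr7:141447641-141447670, plus strand: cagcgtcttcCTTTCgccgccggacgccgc
Rps3, chr7:99483690-99483719, minus strand: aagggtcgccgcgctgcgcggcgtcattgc
Rplp0, chr5:115559457-115559486, plus strand: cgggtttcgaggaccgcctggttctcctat
The absence of a run says only that these letters are not at the annotated start. Of the other motifs searched on both strands of the windows, CCGGAA stood in 48.5% (14.9% of all windows), ATGGCG in 28.8% (8.93%) and GGGCGG in 60.6% (35.7%). TATAAA stood in 9.09% (13.6%). CCGGAA is the core bound by ETS family factors, ATGGCG lies within the motif of YY1, and GGGCGG is the GC box of SP1.

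The 76 genes lay on 19 chromosomes. Chromosome 7 held 14 of them and the X chromosome 4 (Rpl10, Rpl36a, Rpl39 and Rps4x). Their median transcript length was 704 bases (range 368 to 3706), against 2021 over all protein-coding genes, and their median GC content was 52.0% against 49.9%.

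Library totals ran from 14183131 to 22463635 counts, so that 3 counts, the limit a count of 0 allows, equal 0.134 to 0.212 CPM (counts scaled to the same total in every library). These limits cover counting error only. Acss2 had 3.08 to 8.81 CPM in the 9 KO libraries and 44.0 to 54.6 CPM in the 8 WT libraries. Xist ranged from 743 to 1209 CPM in the 5 females and up to 0.121 CPM in the 12 males, so genotype and sex went with the labels. No 2 of the 136 pairs of libraries held identical counts.

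Levels differed widely within the family, and 4 genes were nearly empty. The level per length is the CPM per kilobase of transcript, as the mean over the 6 group means. Rpl13a led with 856 CPM per kb, followed by Rplp1 (764), Rps21 (665), Rps15 (588) and Rps14 (544). Rplp1 encodes an acidic protein of the P stalk, the arm of the large subunit that recruits elongation factors, and Rps15 and Rps14 encode proteins of the small-subunit head and platform. At the other end, 72 of the 76 genes had at least 10 counts in every library, and the lowest of these, Rps20, stood at 30.6 CPM per kb. Below it came Rps27 (1.15), Rpl34 (0.911), Rpl30 (0.401) and Rpl26, which had no count in any library. With merged exon length in place of median transcript length, Rplp1, Rps21 and Rps15 stayed among the 5 highest and the 4 lowest stayed the lowest, while Rpl13a moved from rank 1 to rank 8 and Rps14 from 5 to 10. Rps20, which has the longest transcript of the family (3706 bases), moved from rank 72 to 61, and Rps28 (10.1) became the lowest of the 72 genes.

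The 4 nearly empty genes encode core proteins that every ribosome is known to carry, and their counts were low in every library. Rps27 had 1 to 14 counts, Rpl34 4 to 21 and Rpl30 0 to 8. Ribosomal protein mRNAs have left many processed pseudogenes in the mouse genome, and a read that fits several places can be left out by a counter. The windows of 75 bases of each main transcript were therefore compared with all other annotated transcripts. The median gene shared 49.2% of its windows with another gene, and 37 of the 76 shared more than 50% of theirs. Rps27 shared 98.5% of its windows, with the protein-coding copy Rps27rt among others. Rpl26 shared 57.5%, Rpl30 40.1% and Rpl34 39.9%, each with pseudogenes.

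High sharing did not always go with few counts. Rpl10, an X-linked gene whose protein lies near the catalytic centre, shared 91.9% of its windows and stood at 154 CPM per kb. Rps3 (441 CPM per kb) shared none. Across the 76 genes the rank correlation of the shared percentage with the level per length was −0.16. The read length is not given in the sources used here, and with windows of 36 bases this value was −0.018 and the median shared percentage 58.5%. Each of the 4 lowest genes had a copy that is itself listed in the table (Rps27rt, Rpl34-ps1, Gm12191 for Rpl30 and Gm15772 for Rpl26), and each of these copies had 0 counts in all libraries. The part of shared reads in the low values was not tested, and levels of all genes with copies are uncertain.

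**Figure D1:**
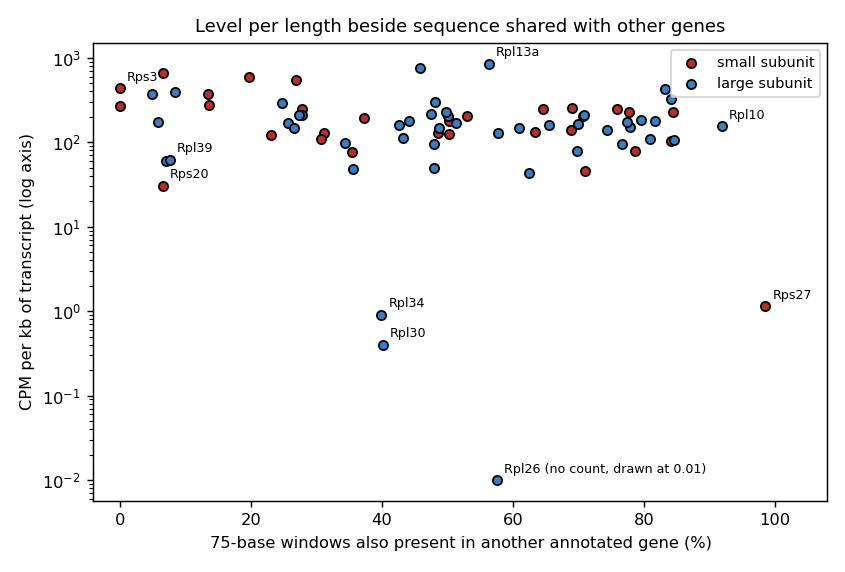
Level per length (CPM per kilobase, log axis) of the 76 genes against the percentage of their 75-base windows that also occur in another annotated gene; each point is 1 gene, red for the small and blue for the large subunit. Rps27, Rpl34, Rpl30 and Rpl26 (no count, drawn at 0.01) lie far below the other 72 genes, which show no clear slope.

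Taken as a family, these genes held about 1% of all counts. Libraries of the same group differed most widely in this share in male KO Tau and in both female groups. It was 0.916%, 0.930% and 0.887% in male WT PBS (libraries 791, 792 and 793). It was 1.02%, 0.968% and 0.928% in male WT Tau (771, 772 and 773). It was 0.865%, 0.780% and 0.969% in male KO PBS (751, 752 and 753). In these 9 libraries the groups lay close together, with WT Tau overlapping both others.

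Male KO Tau and female KO Tau each held a library well above the rest of the group, and the 2 libraries of female WT Tau lay far apart. Male KO Tau gave 1.40% in library 711 and 1.02% and 0.990% in 712 and 713. Female WT Tau gave 1.71% in library 331 and 1.15% in 341. Female KO Tau gave 1.16%, 1.27% and 1.64% (314, 324 and 325). The highest share was 2.19 times the lowest (331 against 752), and all 5 female libraries lay above every male library but 711.

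**Figure D2:**
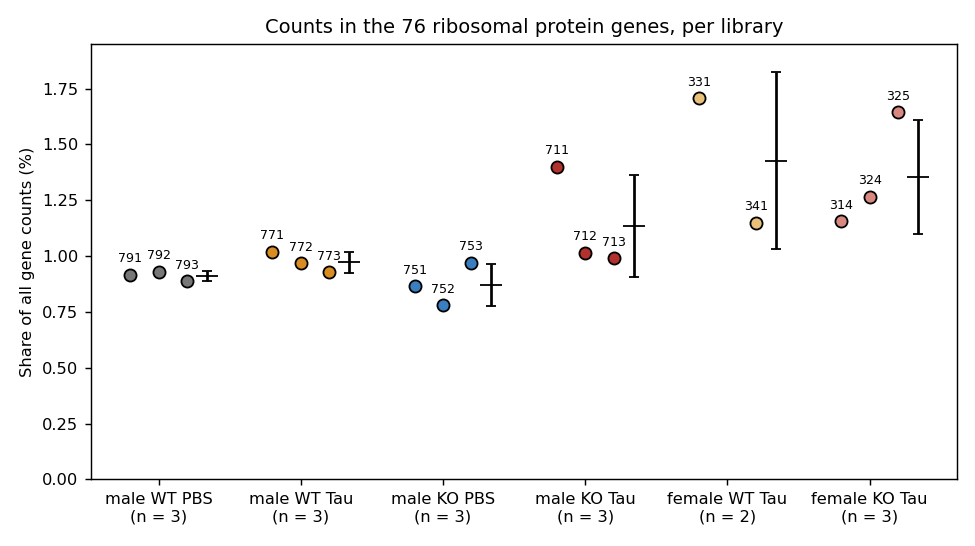
Share of all gene counts held by the 76 genes in each library (points, numbered by label) with the group mean and SD (horizontal mark and bar). Library 711 at 1.40% lies apart from the other male KO Tau libraries, and the female libraries range from 1.15% to 1.71%.

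The genes moved together from library to library. Over the 17 libraries, log2 CPM of a gene correlated with the mean of the other members at a median r of 0.96 among the 72 genes with at least 10 counts in every library, and 63 of the 72 had r above 0.9. With deviations from the group means the median r was 0.94. These values are descriptions, since all genes of a library share its preparation and its total. The median gene had an SD of 0.33 (log2 CPM) over the libraries and of 0.11 relative to the other members.

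All 72 genes were higher in library 711 than in the mean of 712 and 713, by a median of 0.45 on the log2 scale. All 72 were likewise higher in 331 than in 341, by a median of 0.57. Rps15a showed the smallest excess in 711 (0.071) and Rps28 the largest (0.76). Across the 72 genes the rank correlation of this excess with transcript length was −0.097 for 711 and −0.19 for 331. With GC content it was 0.0058 for 711 and −0.42 for 331.

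A few genes kept their own course. Rpl39, a very small X-linked protein at the exit tunnel, had the steepest slope on the mean of the other members (1.67) and the largest SD relative to them (0.35). Rpl28 (0.48), Rpl29 (0.52) and Rpl7a (0.53) had the shallowest slopes, and Rpl28 also had the lowest correlation with the other members (r = 0.75).

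**Figure D3:**
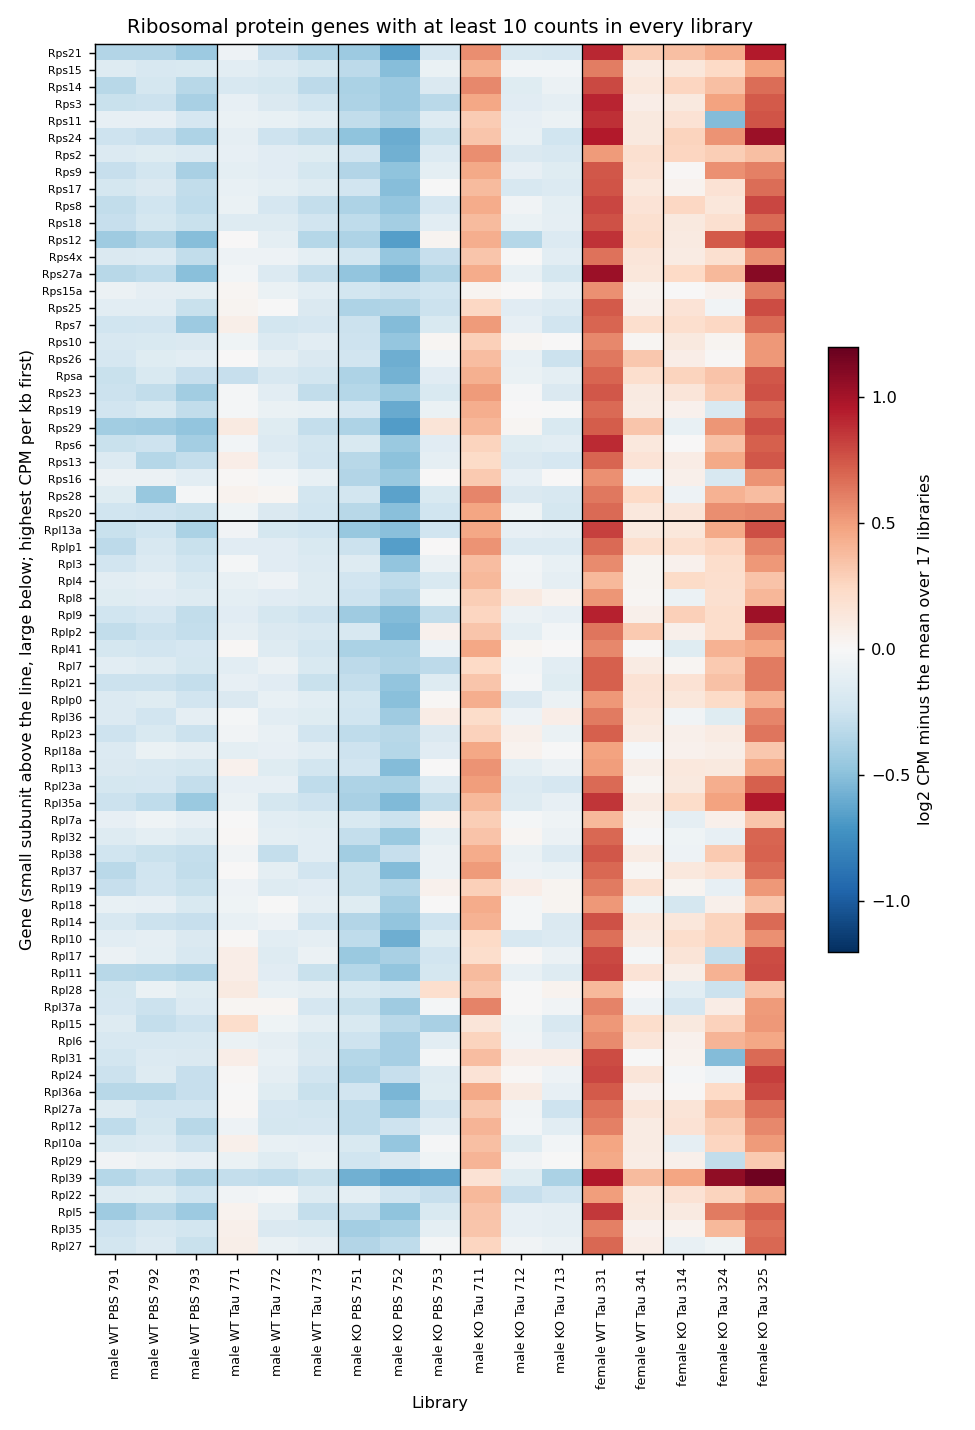
Log2 CPM of the genes with at least 10 counts in every library (all but 1 of the 72 are drawn), as the difference from the gene's mean over the 17 libraries (red higher, blue lower); rows are genes, ordered by level per length within the small and the large subunit, and columns are libraries. Columns 711, 331 and 325 are red in nearly every row and column 752 is blue, while Rpl39 is reddest in 324 and 325.

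Astrocyte, microglia and endothelial markers were high in library 711 and the females, the libraries with the highest ribosomal protein shares. Inhibitory neuron and CA3 pyramidal cell markers were low in them. The summed level of 10 astrocyte markers was 8368 CPM in 711 and 8957 to 10170 CPM in the female libraries, and 4533 to 5371 CPM in the other 11 male libraries. The summed level of 10 inhibitory neuron markers was 690 CPM in 711 and 547 to 765 CPM in the females. It was 934 to 1631 CPM in the other males, highest in 752. Microglia markers were at 678 CPM in 711, 647 to 818 CPM in the females and 414 to 604 CPM in the other males. Endothelial markers were at 392, 431 to 555 and 207 to 349 CPM in the same order. For CA3 markers the values were 981.5, 777 to 1312 and 1314 to 1812 CPM, so the females nearly reached the other males. Sums of dentate granule cell and CA1 markers did not separate these libraries. Library 752 had the lowest ribosomal protein share and also the highest sum of striatal markers (803.5 CPM, 179 to 305 CPM in the other libraries). Within the females, 331 had the highest share and the highest astrocyte and inhibitory neuron sums. Among the other males, 712 had the lowest astrocyte sum (4533 CPM) at a share of 1.02%. Oligodendrocyte markers and Malat1, a nuclear RNA, went with the share in some of these libraries and not in others. Oligodendrocyte markers reached 12700 CPM in 331 and 8094 CPM in 711, but 6339 CPM in 325, within the 3294 to 7509 CPM of the remaining libraries. Malat1 was at 1078 CPM in 711 but at 538 CPM in 331, where the share was highest, and at 449 to 958 CPM in the others.

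Choroid plexus markers did not go with the family: they were at 4177 CPM in library 713 and at 303 CPM in 711. Short transcripts as a whole were favoured in 331 and 325, where log2 CPM changed by −0.12 and −0.075 per doubling of length (−0.037 to 0.054 in the other libraries). The slope on GC content was −0.12 to −0.25 per 10 percentage points in all 5 females and −0.071 to 0.24 in the males, 711 at 0.036. The part of any of these measures in the ribosomal protein levels was not tested.

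**Figure D4:**
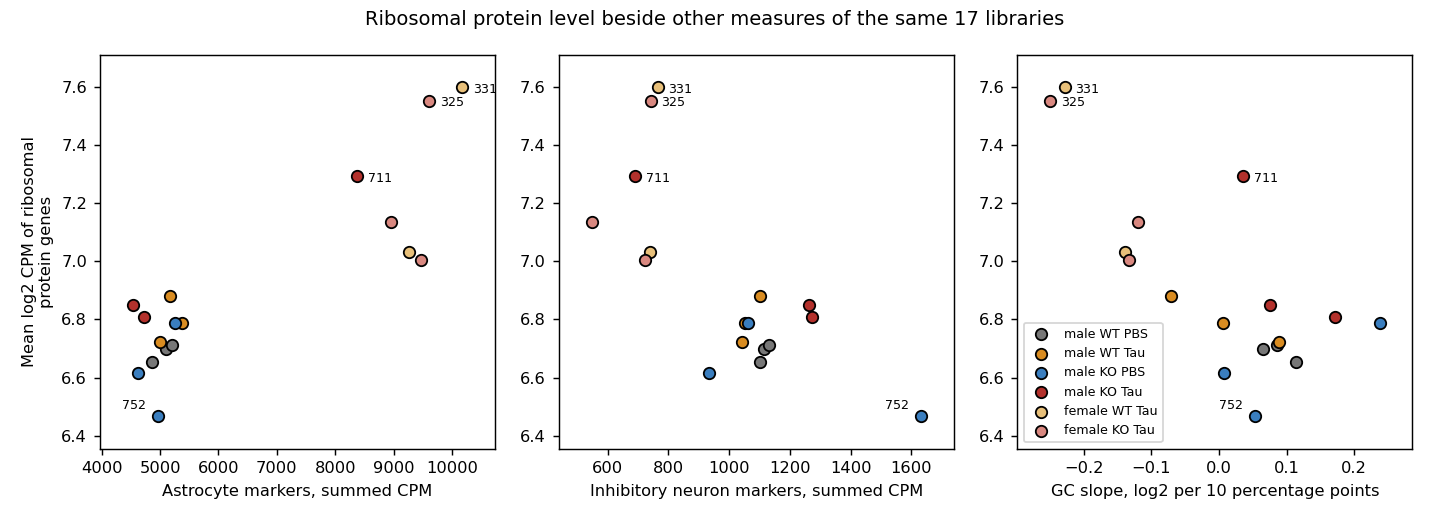
Mean log2 CPM of the ribosomal protein genes against summed CPM of astrocyte markers, summed CPM of inhibitory neuron markers and the slope of log2 CPM on GC content; each point is 1 of 17 libraries, coloured by group. Library 711 lies with the female libraries on the astrocyte and inhibitory neuron axes and with the males on the GC axis.

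Genes outside the family that varied most like it were of mixed function. By correlation with the mean of the members within groups (deviations from group means, 17 libraries), the first was Rack1 (r = 0.98). It was followed by Ndufa3, a small subunit of respiratory complex I (0.97), Sec11c of the signal peptidase (0.97), Hmgn1, a nucleosome-binding protein (0.96), and Gja1, the astrocyte connexin (0.96). Timm8b, Prdx1, Tpt1, Smco3 and Glud1 completed the first 10, with r from 0.95. Of all genes tested outside the family, 0.561% had r above 0.9.

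The first question of the study design was what tau does in wild-type tissue. In male WT Tau against male WT PBS, 74 genes could be tested, since Rpl26 and Rpl30 did not pass the filter on low counts. No gene of the family passed an FDR of 0.05 in the edgeR quasi-likelihood test, and 0% of all 15098 genes did. None had an unadjusted p under 0.05 (1.86% of all genes). The log2 fold change was above 0 in 68 of 74 genes (47.7% of all genes), with a median of 0.092 against −0.0085 over all genes, and 0.049 without library 771. For 27 of the 74 genes every Tau library lay above every PBS library (6.84% of all genes). DESeq2 and limma voom with quality weights also called none, and DESeq2 on only these groups without library 773 called 4 of 76 (5.26%, with 1.05% of all 24498 symbols). DESeq2 was run without the filter on low counts. Its shares over all symbols include 4152 without any count and would be higher over tested genes.

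Loss of Acss2 without tau left the family near its WT level. In male KO PBS against male WT PBS the median log2 fold change was 0.0056 (−0.074 without library 753 and 0.066 without 752), with 39 genes above 0 (52.5% of all genes) and 35 below. None passed (0.00662% of all genes, the 1 gene Acss2) or had an unadjusted p under 0.05 (4.42% of all genes). Rpl39 had the lowest value: 26.8, 27.9 and 26.5 CPM in WT PBS and 22.8, 21.8 and 22.1 CPM in KO PBS. These groups did not overlap, as in 5 of the 74 genes that were lower throughout (9.39% of all genes), but the log2 fold change of −0.23 ± 0.12 (SE) had an adjusted p of 0.999 (edgeR). The highest value, 0.70 ± 0.49, was that of Rps27, which rests on 4 to 12 counts a library.

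In the KO mice given tau nearly all genes of the family had higher mean levels than in the other male groups, by an amount that depended on library 711. Against WT PBS, all 74 genes had a log2 fold change above 0 (49.3% of all genes), with a median of 0.32 against −0.0032 over all genes. None passed the FDR (0.00662% of all genes; smallest adjusted p 0.783, edgeR). With unadjusted p under 0.05 there were 45 of 74 genes, all above 0, where 3.52% of all genes were above 0 at that level. DESeq2 and voom called none either. The medians of the small subunit (0.33, n = 30) and the large subunit (0.31, n = 44) lay close together.

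Without library 711 the median was 0.15 and 70 genes stayed above 0. The other libraries of the group, 712 and 713, lay above all WT PBS libraries for 53 of 74 genes, the same number as with 711, though with only 2 libraries 19.4% of all genes did so (6.29% with 711). In edgeR on only the groups compared, without 711, 1 of 73 genes passed the FDR (1.37%, with 4.15% of all genes). In DESeq2 on these libraries 6 of 76 did (7.89%, with 4.2% of all 24498 symbols). Of those symbols 4152 had no count, so the share over tested genes would be higher than 4.2%. The fits without 711 were added because the study's own text gives 2 libraries for this group, without naming the one left out.

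Among the small-subunit genes, Rpsa, which also serves as a laminin receptor, had 178, 188 and 177 CPM in WT PBS and 288, 202 and 198 CPM in KO Tau. Its groups did not overlap, but 712 and 713 exceeded the highest WT library by little, and the log2 fold change of 0.35 ± 0.15 (SE) had an adjusted p of 0.783 (edgeR). Rps6, the target of S6 kinase, had 71.5, 72.6 and 65.0 CPM in WT PBS and 104, 78.0 and 78.7 CPM in KO Tau. Rps27a, which is made as a fusion with ubiquitin, had 105, 107 and 93.1 CPM against 180, 124 and 114 CPM, and a log2 fold change of 0.46 ± 0.15. In each of them 711 was the highest library and the groups did not overlap.

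Rps19, mutated in Diamond-Blackfan anaemia, had a log2 fold change of 0.40 ± 0.14 and the X-linked Rps4x one of 0.30 ± 0.12. Rps15a lay lowest in the family, with 115, 112 and 111 CPM in WT PBS and 124, 122 and 114 CPM in KO Tau. Here the groups overlapped and the log2 fold change was 0.093 ± 0.071. The highest value, 1.03 ± 0.48, was that of Rps27, on 4 to 14 counts a library.

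Among the large-subunit genes, Rpl5 and Rpl11 encode the proteins that carry 5S ribosomal RNA and bind MDM2 when ribosome assembly is disturbed. Rpl5 had 49.3, 51.9 and 49.0 CPM in WT PBS and 84.1, 61.8 and 61.7 CPM in KO Tau, with a log2 fold change of 0.47 ± 0.13. Rpl11 had 80.1, 79.9 and 78.0 CPM against 131, 94.8 and 90.9 CPM (0.42 ± 0.14). For both genes every KO Tau library lay above every WT PBS library, 711 furthest.

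Rpl13a, also known for silencing inflammatory mRNAs, had a log2 fold change of 0.41 ± 0.15. Rpl41, the smallest ribosomal protein, had 0.41 ± 0.13, and Rpl3, of the peptidyl transferase centre, 0.32 ± 0.14. The P-stalk genes Rplp0, Rplp1 and Rplp2 had 0.27 ± 0.16, 0.38 ± 0.20 and 0.36 ± 0.15. Lower values came from Rpl10 (0.12 ± 0.13) and Rpl22 (0.18 ± 0.15), and both lay below 0 without library 711 (−0.039 and −0.070).

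**Figure D5:**
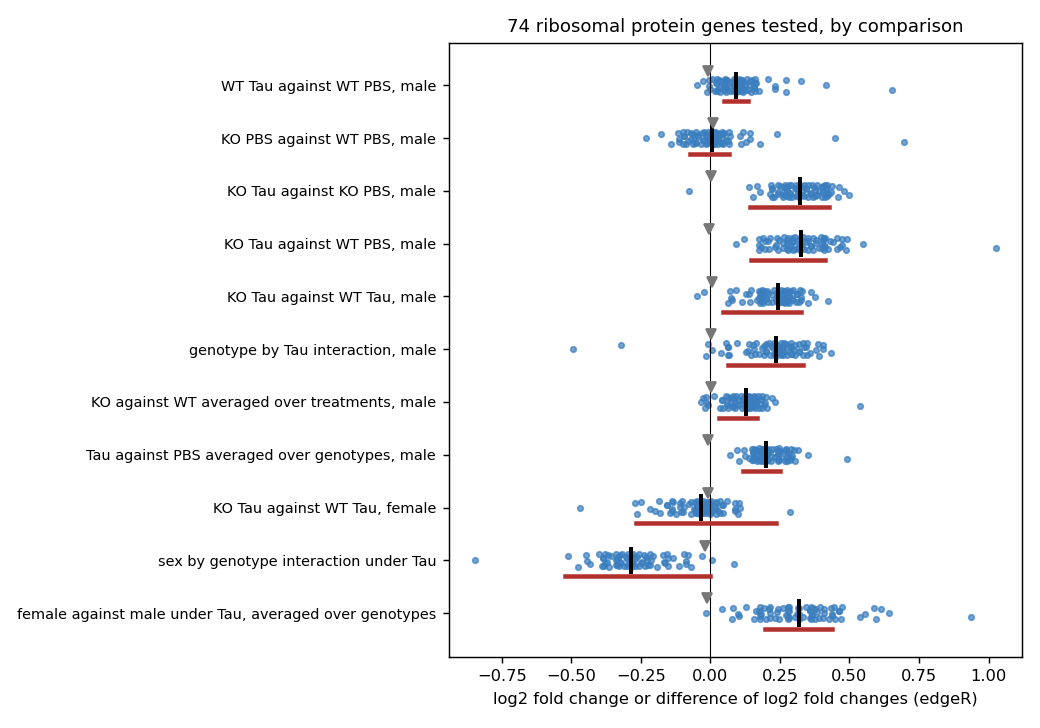
Log2 fold changes (or differences of log2 fold changes) of the 74 genes tested in each of 11 comparisons (blue points), with their median (black line), the median of all genes tested (grey triangle) and the range of the family's median when each library is left out in turn (red bar). The red bars of male KO Tau against each other male group reach from 0.047 to 0.43, and the one of female KO Tau against WT Tau spans 0.

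The other comparisons with male KO Tau share these libraries. Against KO PBS the median log2 fold change was 0.32, with 73 of 74 genes above 0 (50.2% of all genes) and 47 with unadjusted p under 0.05 (3.54% of all genes, counting those above 0). For 37 genes the groups did not overlap (6.16% of all genes). No gene passed (0% of all genes; smallest adjusted p 0.550, edgeR), and without 711 the median was 0.14. Against WT Tau the median was 0.24, with 72 genes above 0 (51.8% of all genes), 14 of unadjusted p under 0.05 (2.32%) and none past the FDR (0.00662%). The groups did not overlap for 13 genes (3.85% of all genes). Without 711 this median was 0.047, and DESeq2 on only these groups then called 1 of 76 genes (1.32%, with 5.62% of all 24498 symbols).

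The interaction, which asks whether tau acts differently in KO and WT males, had a median of 0.24, with 70 genes above 0 (50.2% of all genes), 5 of unadjusted p under 0.05 (1.93%) and none past the FDR (0% of all genes). Without library 711 the median was 0.064, and with voom quality weights 0.032. Rpl39 had the highest single value (0.43 ± 0.17, adjusted p 0.996, edgeR). Averaged over genotypes, Tau against PBS in males had a median of 0.20 with all 74 genes above 0 (47% of all genes), 35 of unadjusted p under 0.05 (2.79%) and none past the FDR (0%), and without 711 the median was 0.12. Averaged over treatments, KO against WT had a median of 0.13 with 68 genes above 0 (51.2% of all genes), 2 of unadjusted p under 0.05 (2.46%) and none past the FDR (0.00662%), and without 711 the median was 0.030 with 51 genes above 0. With all libraries in the fit, DESeq2 and voom called no gene of the family in these 5 comparisons.

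In females under tau, KO and WT libraries could not be separated in this family. The median log2 fold change was −0.034, with 21 of 74 genes above 0 (48% of all genes), none with unadjusted p under 0.05 (2.89% of all genes) and none past the FDR (0.00649% of all genes, smallest adjusted p 0.997 within the family, edgeR). No gene had groups that did not overlap (16% of all genes). The value depended on single libraries: without 331 the median was 0.24 and without 341 it was −0.27. The sex by genotype interaction had a median of −0.28 with 2 genes above 0 (47.4% of all genes), none of unadjusted p under 0.05 (2.94%) and none past the FDR (0%), and without 331 it was −0.00016.

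Female libraries carried more ribosomal protein mRNA than male libraries under tau. Averaged over genotypes, the log2 difference was above 0 in 73 of 74 genes (48.5% of all genes), with a median of 0.32 against −0.013 over all genes, and 0.20 without library 331. By edgeR at an FDR of 0.05, 16 genes (21.6%) rose and none fell, 8 in each subunit. Over all 15419 genes 23.8% passed in either direction and 11.4% were higher. With unadjusted p under 0.05 there were 44 of 74 genes (19% of all genes, counting those above 0). Sex and any difference in how and when female and male animals were processed cannot be told apart here, since the labels give no batch.

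The number of genes called depended on single libraries. Without library 711 it was 52 (70.3%, with 40.7% of all genes), and without 331 it was 1 (1.35%, with 3.99% of all genes). Without male WT Tau 771, 772 or 773, or male KO Tau 712 or 713, it was 1 to 4 (1.35% to 5.41%, with 10.3% to 15.8% of all genes). Without 341 it was 35 (47.3%, with 22.8% of all genes). Without 324 it was 5 (6.76%, with 17% of all genes) and without 325 it was 2 (2.7%, with 15.5% of all genes). With 711 in place, the groups did not overlap for 1 gene (6.76% of all genes were entirely higher in females), and without it for 43 (12.6% of all genes).

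Rpl39 differed most. It had 27.9, 27.5 and 28.3 CPM in male WT Tau and 38.2, 30.7 and 26.1 CPM in male KO Tau. In females it had 66.0 and 44.1 CPM in WT Tau and 47.2, 71.2 and 76.2 CPM in KO Tau. It was the only gene of the family whose lowest female library lay above the highest male library, and its log2 difference was 0.94 ± 0.14 (SE, adjusted p 0.00438, edgeR). Rpl39 is X-linked, as is Rpl10, which rose by 0.36 ± 0.12 (adjusted p 0.0440), while the X-linked Rps4x had 0.28 ± 0.12 (0.0951). Rpl36a, also X-linked, did not pass the FDR either.

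Of the other genes that passed, Rps24 (0.64 ± 0.17), Rps21 (0.61 ± 0.17), Rps27a (0.60 ± 0.19) and Rps12 (0.59 ± 0.18) had the largest differences. Rps21 had 230, 199 and 186 CPM in male WT Tau and 355, 211 and 210 CPM in male KO Tau. It had 452 and 297 CPM in female WT Tau and 309, 329 and 466 CPM in female KO Tau, so that library 711 lay among the females and the other 5 males below them. Rpl9, Rpl35a, Rpsa, Rpl5, Rps6, Rps13, Rpl21, Rps18, Rpl27a and Rplp2 rose by 0.36 to 0.56.

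Genes that did not pass included Rpl13a (0.45 ± 0.16, adjusted p 0.0590), Rpl11 (0.44 ± 0.15, 0.0585) and Rps19 (0.20 ± 0.15, 0.337). Rplp0 (0.26 ± 0.12) and Rplp1 (0.36 ± 0.15) of the P stalk had adjusted p of 0.122 and 0.0919 (edgeR). Rpl28 alone was below 0 (−0.014 ± 0.11). In the same comparison 7 of 10 astrocyte, 6 of 11 microglia and 7 of 10 endothelial markers passed as higher, and 6 of 10 inhibitory neuron markers as lower. So did 2 of 12 oligodendrocyte markers as higher, but none of 10 dentate granule cell and 16 choroid plexus markers. Over all genes, 23.8% passed in either direction and 11.4% were higher. The part of these markers in the ribosomal protein differences was not tested.

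Genes with and without a pyrimidine run gave similar medians. In KO Tau against WT PBS the 13 genes with a run at the start (such as Rpl15 and Rps6 above) had a median of 0.34. The 21 tested genes without a run near the start (such as Rps3 and Rplp0) had a median of 0.32. In females against males the medians were 0.36 and 0.28. There 5 of 13 (38.5%) and 5 of 21 genes (23.8%) passed the FDR, beside 16 of 74 in the family. Over all genes tested, 23.8% passed in either direction and 11.4% were higher.

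Other genes of translation were followed through lists. Of 22 other TOP mRNAs, which include elongation factors, Tpt1 and Npm1, 21 had a log2 fold change above 0 in KO Tau against WT PBS, with a median of 0.21, and none passed. In females against males 5 of the 22 rose (11.4% of all genes were higher): Vim (0.82 ± 0.16), Eef1b2 (0.49 ± 0.13), Btf3 (0.48 ± 0.13), Tpt1 (0.45 ± 0.14) and Npm1 (0.41 ± 0.11). Eef1a1, the most abundant elongation factor, had 0.19 ± 0.14 (adjusted p 0.350, edgeR). Of the 8 tested ribosomal protein genes outside the naming pattern and their paralogs, 7 were above 0 in KO Tau against WT PBS (median 0.25). In females against males Rpl22l1 (0.84 ± 0.19) and Rps27l (0.76 ± 0.20), paralogs of Rpl22 and Rps27, rose.

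Genes that build ribosomes gave medians near or below 0. Of 54 ribosome biogenesis genes, 24 were above 0 in KO Tau against WT PBS, with a median of −0.049. In females against males 19 were above 0 (median −0.085), and 1 rose and 9 fell (23.8% of all genes passed in either direction). The 20 genes of RNA polymerase I, which transcribes ribosomal RNA, had medians of 0.026 and −0.045. The 34 tested initiation factors had medians of 0.024 and −0.091. Mitochondrial ribosomal proteins, 77 genes, had medians of 0.071 and 0.055, with 61 and 47 above 0.

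The nuclear genes of oxidative phosphorylation, short and abundant like the ribosomal protein genes, went partly with them. Of 74 tested, 71 were above 0 in KO Tau against WT PBS (median 0.21) and none passed. In females against males 50 were above 0 (median 0.16), and 6 rose and 7 fell (23.8% of all genes passed in either direction). Their summed level was highest in library 331 (16220 CPM), next in 325 (14560 CPM) and 13200 CPM in 711, beside 13160 CPM in 712, so that 711 stood out less on this list than on the ribosomal protein genes.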

How the data were processed

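Poly(A) libraries were prepared by the authors from 300 ng of total RNA. Reads were aligned by the authors with STAR 2.5.2 to mm10 (GRCm38) and counted per gene symbol with HTSeq 0.9.1, per the labels. The deposited values were raw read counts; STAR was set to keep reads with several alignments, no HTSeq option for such reads is stated, and the annotation release and read length are not given in the sources used here. The total per library (14183131 to 22463635) sets the counting precision.

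Counts were tested in R 4.3.3 with edgeR 4.0.16 (quasi-likelihood, TMM factors, filterByExpr with minimum count 10 and minimum total 15, Benjamini-Hochberg over all genes, FDR 0.05), in 1 fit of the 12 male libraries (15098 genes) and 1 of the 11 Tau libraries (15419 genes). These fits were also run with DESeq2 1.42.0, limma 3.58.1 voom, other factors, filters, offsets and samples, and without each library. The tests were also run on simulated counts. There each gene was drawn independently, so they do not show how the tests behave when a family shifts together in a library. p-values measure the spread between libraries labelled as biological replicates. Log2 CPM used a prior count of 2. Transcript lengths, copies and positions came from GENCODE annotation of GRCm38, in which 98.5% of symbols were found. Copies were searched among annotated transcripts, not in the genome.

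Genes named were fixed members (Rpsa, the P stalk, Rps27a, Rps4x, Rpl10, Rps6, Rps19, Rpl3, Rpl5, Rpl11, Rpl13a, Rpl22, Rpl39, Rpl41), the 5 highest and lowest per length, the 3 extremes per comparison, calls, and the 10 most correlated genes. The single values of 2 genes are not reported here. Members and lists were chosen with earlier results of these data known.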

Additional observations from a re-analysis of the deposited data

How the results depend on the processing

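The direction of the family's median was the same under every alternative run for all comparisons but KO PBS against WT PBS and female KO Tau against WT Tau. Sizes depended on library 711. The median for KO Tau against KO PBS was 0.13 with voom quality weights, 0.14 to 0.43 leaving out 1 library, and without 711 on only the groups compared 0.14 (edgeR 0.1398, DESeq2 0.1409). For KO Tau against WT PBS it was 0.15 to 0.41 leaving out 1 library (on only the groups compared without 711, edgeR 0.1462, DESeq2 0.1485), with 1 gene called by edgeR and 6 by DESeq2. For KO Tau against WT Tau it was 0.071 with voom and 0.047 to 0.32 leaving out 1 library (without 711, edgeR 0.0515 and DESeq2 0.0472, which called 1 gene). The male interaction had 0.032 with voom and 0.064 to 0.33 leaving out 1 library. For female KO Tau against WT Tau the range was −0.27 to 0.24 (without 331 on only these groups, edgeR 0.242, DESeq2 0.2409), and for the sex interaction −0.52 to −0.00016. DESeq2 on only WT Tau and WT PBS, without 773, called 4 genes. Rpl10 and Rpl22 in KO Tau against WT PBS reversed with voom (−0.00639 and −0.021) and without 711 (ranges leaving out 1 library −0.039 to 0.21 and −0.070 to 0.31; on only the groups compared −0.038 and −0.069 in edgeR, −0.036 and −0.067 in DESeq2). Females against males had 28 genes called with DESeq2 (36.8%, with 17.4% of all 24498 symbols), 48 with voom (64.9%, with 40.1% of all genes), 5 with length and GC offsets (6.76%, with 18.1%), 30 with all 17 libraries in 1 fit (40.5%, with 29.2%) and 1 to 52 leaving out 1 library. The cause of these shifts was not tested. DESeq2 shares over all 24498 symbols include 4152 without any count and would be higher over tested genes. Alternatives added after seeing the data were the fits of only the groups compared in DESeq2, or with a library left out. No paired analysis was possible because the groups share no replicate numbers. Counts of at most 21 a library limit the precision of the values of Rps27, Rpl34 and Rpl30.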
